A study of Mus musculus with 6 samples.

Results

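The genes described are 9 peripheral myelin genes, Mbp, Pmp22, Prx, Mag, Egr2, Ncmap, Mal, Cnp and Drp2, in cultured mouse dorsal root ganglion (DRG) cells. Among them Egr2 encodes a transcription factor and not a protein of the sheath. All 9 were chosen by symbol, as the rows with these names in the count table of each culture. The 9 are among 35976 genes listed in each table, and 9 of 9 were among the 18277 genes with enough counts to be tested. The study asked whether a day of exposure to HC-HA/PTX3, a matrix complex of hyaluronic acid, heavy chains and pentraxin purified from human amniotic membrane, alters gene expression in sensory neurons. DRGs of all lumbar levels were taken from wild-type C57BL/6 mice of both sexes, 2 to 3 months old, dissociated with enzymes, and plated with nerve growth factor and glial cell line-derived neurotrophic factor. Exposure began 24 h after plating and lasted 24 h, with HC-HA/PTX3 at 15 µg/mL in 3 cultures and vehicle alone in the other 3, and total RNA depleted of ribosomal RNA was sequenced. The labels number the replicates 1 to 3 in each group, and the study calls them biological. Whether separate animals, platings or days set them apart is not given in the sources used here, so p-values speak only for these samples, each called a culture. In the main fit, which compares same-numbered cultures, p-values measure a change against the spread left within those pairs. Only the fit without pairs measures it against the spread between cultures of a group. The methods describe no step that sorts neurons from other cells of the ganglion. From a check of marker genes, the study describes its cells as highly enriched in neurons, with the glial markers Apoe and Fabp7 very low.

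Myelin in peripheral nerves is made by Schwann cells, which wrap their own membrane around an axon and compact it with a small set of abundant proteins. The transcription factor Egr2, acting together with Sox10, switches on the genes of those proteins and of the lipid enzymes that the membrane needs. When Schwann cells lose contact with an axon, as in a dissociated culture, they are known to lower these genes and to return towards an immature state.

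The libraries held 42516054, 42617496 and 54117547 counts in vehicle replicates 1, 2 and 3, and 37998071, 37434266 and 38420247 counts in HC-HA/PTX3 replicates 1, 2 and 3. Levels are given in CPM, the count relative to library size, after scaling by edgeR's trimmed mean of M-values (TMM), where 1 CPM stood for 37.1 to 56.0 counts. The cultures carried neuron RNA at a high level, since 8 neuron markers summed to between 5167 and 6336 CPM in each culture, with Tubb3 the most abundant by the mean over the 6 cultures, which is how the most abundant gene of each list is given. They also carried RNA of other cells. Summed over 5 Schwann lineage markers, of which Sox10 was the most abundant by mean, the level was 889.5, 649 and 331 CPM in vehicle replicates 1, 2 and 3, and 911, 654 and 326 CPM in the HC-HA/PTX3 replicates. S100b did not follow the other 4 markers, with 188, 93.9 and 142.8 CPM in vehicle replicates 1, 2 and 3 and 193, 108 and 170.5 CPM after HC-HA/PTX3, and in replicate 3 it was above Sox10. Replicate 3 had the lowest sum in both groups, and it also stood apart on the first principal component of all tested genes, which held 52.5% of the variance.

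Egr2, the transcription factor that directs myelination, was measured at 74.4, 77.8 and 37.7 CPM in vehicle replicates 1, 2 and 3. It was at 56.1, 71.8 and 22.0 CPM after HC-HA/PTX3. Replicate 3 was the lowest of each group, each treated culture lay under the vehicle culture of the same number, and the groups overlapped. The fitted log2 fold change within same-numbered pairs was -0.42 (SE 0.11, adjusted p = 0.0207 in the quasi-likelihood F test of edgeR with Benjamini-Hochberg correction).

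Mbp encodes myelin basic protein, which holds the cytoplasmic faces of the compact sheath together, and its locus also makes the Golli transcripts of neurons and immune cells, which a count per gene does not separate. Its level was 175.7, 104.6 and 40.1 CPM in vehicle replicates 1, 2 and 3. After HC-HA/PTX3 it was 153, 75.6 and 33.6 CPM. Replicate 1 was high and replicate 3 low in both groups, so the groups overlapped over nearly their whole range, although each treated culture was under its same-numbered vehicle culture. The fitted treatment change was 0.808-fold (log2 -0.31, SE 0.07, adjusted p = 0.0139 from the same edgeR test).

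Pmp22, a membrane protein of compact myelin whose duplication causes the most common inherited demyelinating neuropathy, was first isolated as a growth arrest gene of fibroblasts and is made by many cell types. It was counted at 543.9, 448 and 432 CPM in vehicle replicates 1, 2 and 3, and at 491, 397 and 454 CPM after HC-HA/PTX3. Replicate 1 was the highest of each group by a small margin, the groups overlapped, and the treated culture was lower in pairs 1 and 2 and higher in pair 3. The fitted log2 fold change was -0.08 (SE 0.07, adjusted p = 0.436, edgeR).

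Mal, a lipid raft protein that carries membrane to the sheath, was at 57.2, 26.9 and 14.7 CPM in vehicle replicates 1, 2 and 3, and at 33.6, 22.7 and 13.4 CPM after HC-HA/PTX3. Vehicle replicate 1 was far above the rest, replicate 3 was the lowest of each group, and the groups overlapped. The pair differences were uneven, with log2 values of -0.77 in pair 1, -0.24 in pair 2 and -0.13 in pair 3, and the fitted change was -0.39 (SE 0.12, adjusted p = 0.0422, edgeR).

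Cnp, an enzyme that keeps cytoplasmic channels open in non-compact myelin, was at 63.8, 59.1 and 32.3 CPM in vehicle replicates 1, 2 and 3. After HC-HA/PTX3 its level was 62.3, 47.3 and 28.0 CPM. Replicate 3 was again the lowest of each group and the groups overlapped. The fitted log2 fold change was -0.19 (SE 0.08, adjusted p = 0.121, edgeR). Exons of Cnp share 154 bases with Dnajc7 on the other strand, and the strand setting of the counting is not stated, so reads from that stretch cannot be assigned to either gene.

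Prx and Drp2 form a complex that ties the sheath to the basal lamina and spaces the cytoplasmic bands along the myelin segment. Prx was at 39.9, 20.4 and 12.8 CPM in vehicle replicates 1, 2 and 3, and at 38.4, 16.7 and 8.56 CPM after HC-HA/PTX3. Drp2 was at 22.6, 16.2 and 19.4 CPM with vehicle and at 22.6, 15.4 and 22.0 CPM with HC-HA/PTX3. These partners differed in pattern: Prx was high in replicate 1 and low in replicate 3 of each group, whereas Drp2 was lowest in replicate 2 of each group, and the groups overlapped for both. The fitted log2 fold change was -0.30 for Prx (SE 0.11, adjusted p = 0.0828) and 0.04 for Drp2 (SE 0.09, adjusted p = 0.818, edgeR for both). Prx shares 300 exon bases with Gm15541, an antisense transcript whose reads could be counted with it for the same reason as in Cnp.

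Mag and Ncmap were near the lower end of what the libraries could measure. Mag, an adhesion molecule of the membrane that faces the axon, had 37, 30 and 21 reads in vehicle replicates 1, 2 and 3, and 22, 24 and 11 reads after HC-HA/PTX3. Ncmap, a small membrane protein of non-compact myelin, had 70, 54 and 63 reads with vehicle and 69, 63 and 72 reads with HC-HA/PTX3. In CPM, Mag was lower and Ncmap higher in the treated culture of every pair, and for both the groups overlapped. The SE of the fitted log2 fold change was larger than for the other 7 genes, with -0.40 ± 0.30 for Mag (adjusted p = 0.388) and 0.40 ± 0.21 for Ncmap (adjusted p = 0.228, edgeR). Over the alternative settings the adjusted p of Ncmap ranged from 0.031, with ComBat-seq then limma, to 0.883, without the block and vehicle replicate 2.

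**Figure D1:**
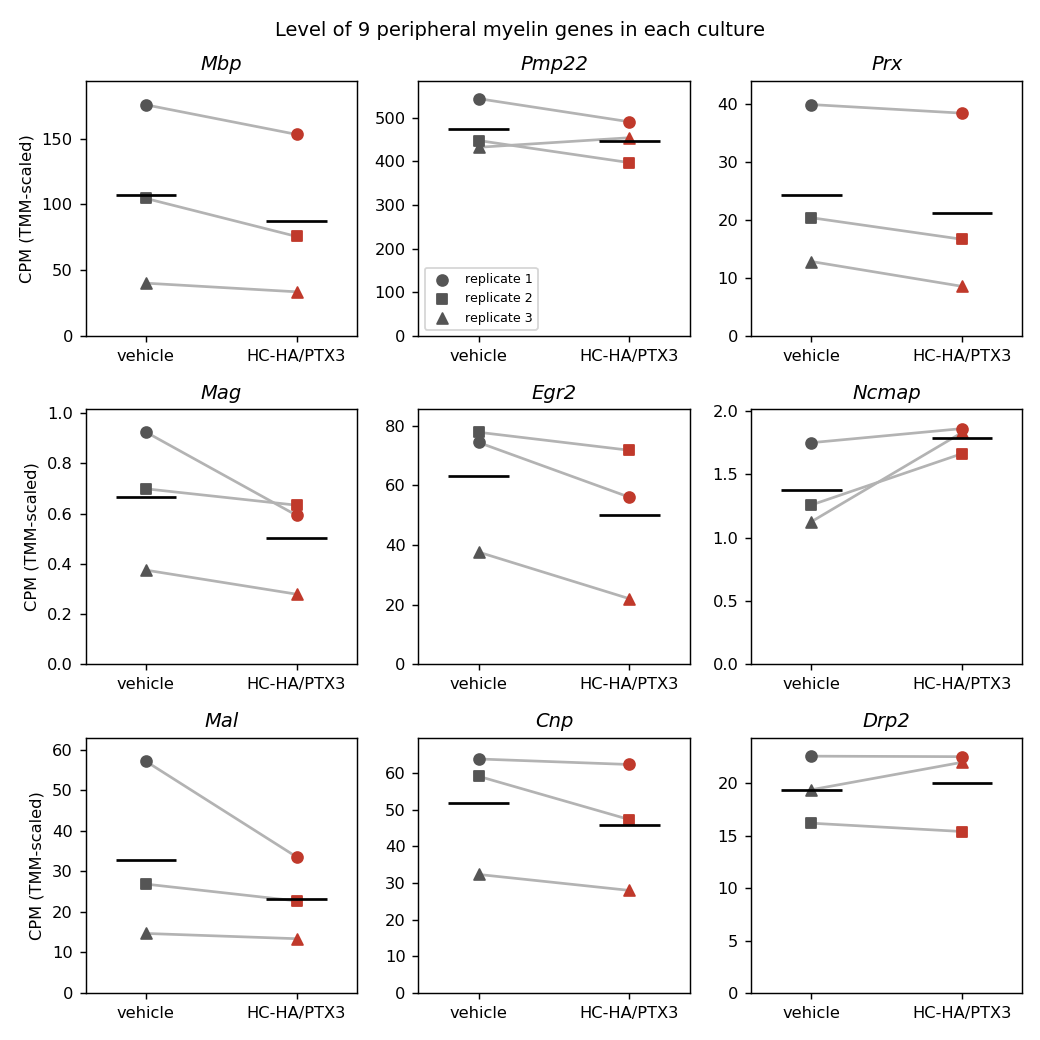
Level of each of the 9 myelin genes in the 3 vehicle cultures (grey) and the 3 HC-HA/PTX3 cultures (red), in TMM-scaled CPM on axes that start at 0. Each symbol is a culture, lines join the same replicate number, and black bars are group means. The red and grey symbols overlap in height in each panel, and replicate 3 is the lowest of each group for Mbp, Prx and Mal.

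Levels were also expressed per kilobase of exon, which allows only a rough comparison between genes. The length counts every annotated exon of all transcripts of a gene, 8.469 kilobases for Mbp, so a gene with many alternative exons reads low. On this measure Pmp22 was the highest in the vehicle cultures, at 202 ± 25.6 CPM per kilobase (SD, n = 3). Egr2 followed at 18.6 ± 6.55, Cnp at 14.2 ± 4.67, Mbp at 12.6 ± 8.01 and Mal at 11.8 ± 7.88 CPM per kilobase. The ranges of mean ± SD of these 4 neighbours overlapped. The SDs are between cultures that the genes share, and the order of genes within each culture was not tested. Prx stood at 4.37 ± 2.50 and Drp2 at 2.27 ± 0.374 CPM per kilobase, and their ranges of mean ± SD also overlapped. Ncmap at 0.618 ± 0.147 and Mag at 0.1635 ± 0.0678 CPM per kilobase were the lowest, and each lay apart from its neighbours. Among all 35976 genes, ranked by mean CPM with vehicle, Pmp22 was at rank 230, Mbp at 2298 and Mag at 15725.

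After HC-HA/PTX3, 0 of the 9 myelin genes passed both thresholds, which were an adjusted p below 0.05 and a log2 fold change beyond ±0.5 (quasi-likelihood F test of edgeR, blocked by replicate number, with Benjamini-Hochberg correction). Of all tested genes, 8.70% passed, 5.38% lower and 3.32% higher. By the adjusted p-value alone, Mbp, Egr2 and Mal passed, 3 of 9 against 19.2% of all tested genes, each lower by less than the fold threshold. Mbp no longer passed without replicate 2 (adjusted p = 0.113, edgeR), nor Egr2 without replicate 1 (0.0924) or 3 (0.113). Mal did not pass without replicate 1 (0.369) or 2 (0.0917), nor with upper-quartile scaling (0.0605, all edgeR), and its log2 fold change was -0.19 without replicate 1. An unadjusted p below 0.05 was reached by 5 of the 9 genes and by 6068 of all tested genes, or 33.2% (edgeR). DESeq2, limma-voom with the block, and ComBat-seq followed by limma also called 0 of the 9. With DESeq2, Mag had no adjusted p and so could not be called. By the adjusted p-value alone, 3 of the members other than Mag passed with DESeq2, against 18.6% of all genes with an adjusted p there. With limma-voom 3 of the 9 passed, against 19.4%. ComBat-seq then limma passed 6 of the 9, adding Prx, Cnp and Ncmap, against 40.7% of all tested genes. The groups were free of overlap in 0 of the 9 genes, against 18.0% of all tested genes. The treated culture was lower in all 3 pairs for 6 genes, higher in all 3 for Ncmap, and mixed for Pmp22 and Drp2. No share over all tested genes is given for this count, so it was not set against a background. The median log2 fold change over the 9 genes was -0.30, and -0.16 without replicate 3, beside -0.01 over all tested genes. Taken within each pair, the median over the 9 genes was -0.15 in pair 1, -0.17 in pair 2 and -0.21 in pair 3, each nearer to 0 than the median of the fitted changes.

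The p-values depended on comparing cultures within pairs. With treatment as the only term, edgeR called 0 of the 9 genes and 0% of all tested genes. Since that fit called no gene at all, it cannot say whether the count of 0 of the 9 depends on the pairing. In the same fit 0 of the 9 had an unadjusted p-value under 0.05, against 2089 of 18277 genes (edgeR). For Mbp the estimate was nearly the same without the block, -0.29, but its SE was 0.65 in place of 0.07. Without replicate 2, Egr2 passed both thresholds at -0.59, and it was the only call among the 9 with a pair left out. No exact permutation test is given for single genes, since with swaps within 3 pairs its smallest possible two-sided p is 0.25.

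**Figure D2:**
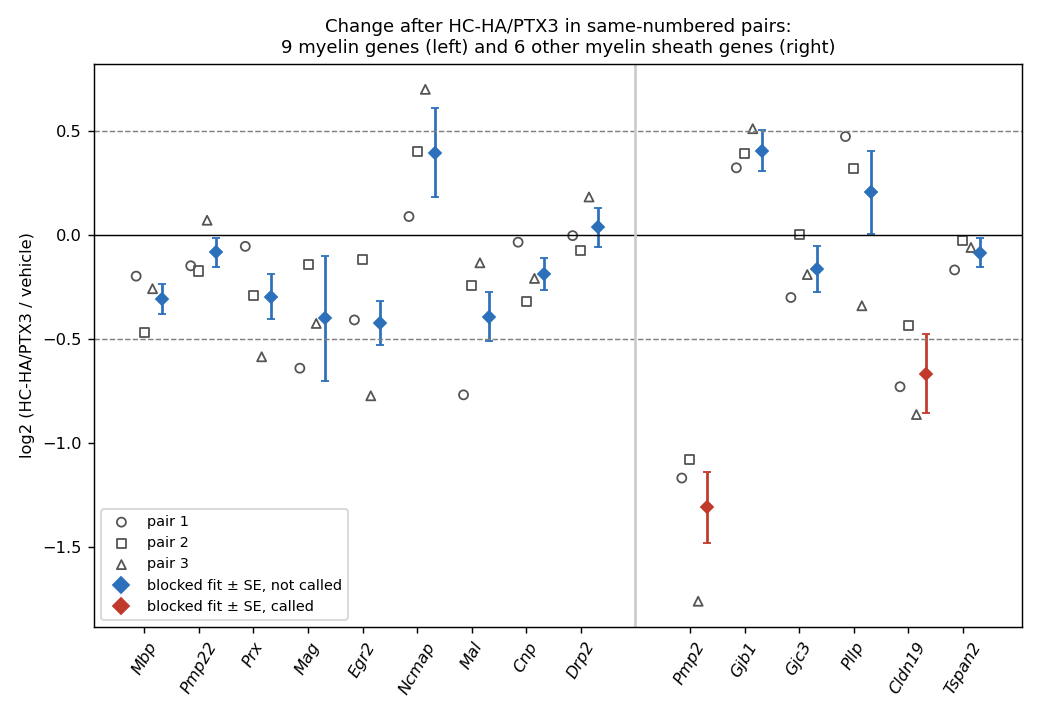
Change after HC-HA/PTX3 in the 9 myelin genes (left) and 6 other genes of the sheath (right), as log2 of HC-HA/PTX3 over vehicle. Open symbols are the 3 same-numbered pairs, diamonds the fitted change with its SE (red where both thresholds were passed), and dashed lines mark ±0.5. The 9 diamonds on the left lie between the dashed lines, and on the right Pmp2 and Cldn19 lie below.

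Most of these genes also differed between replicate numbers. Tested over both treatments together, 6 of the 9 myelin genes differed between replicate numbers, against 23.2% of all tested genes (quasi-likelihood F test of edgeR on the replicate terms, adjusted p below 0.05 and a largest log2 difference beyond 0.5). The 6 were Mbp, Prx, Mal, Egr2, Cnp and Drp2. The largest log2 difference between replicate numbers was 2.16 for Mbp (adjusted p = 3.56e-07), 1.89 for Prx (1.04e-05), 1.66 for Mal (5.19e-05), 1.36 for Egr2 (8.19e-05) and 1.07 for Cnp (5.42e-05, all from edgeR with Benjamini-Hochberg correction). Drp2 was just over the fold threshold at 0.51 and fell under it with upper-quartile scaling, with raw library sizes, and without replicate 1 or 2. Pmp22 at 0.29, Ncmap at 0.33 and Mag at 1.20 were not called, Mag with an adjusted p of 0.0606 (edgeR). Mag was called with both other count filters (adjusted p = 0.0389 with all genes of at least 1 count and 0.040 with at least 10 counts in every culture, edgeR). The median of the largest difference was 1.20 over the 9 genes and 0.39 over all tested genes. The largest of 3 differences exceeds a typical one by construction, so its size was not compared with that of the treatment change.

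These calls differed with the replicate number left out. Without replicate 3, 4 of the 9 genes were called between replicates 1 and 2, namely Mbp at 0.87, Prx at 1.07, Mal at 0.82 and Drp2 at 0.50, while Egr2 and Cnp were not. Over all tested genes the count went from 4244 of 18277 to 1243 of 18329 when replicate 3 was left out. Without replicate 1, 5 of the 9 were called, with Mbp at 1.26, Prx at 0.79 and Mal at 0.80, against 3201 of 18510 tested genes. Without replicate 2, 5 of the 9 were called, against 3071 of 18479. The 5 called genes other than Drp2 were each lowest in replicate 3 of both groups. Egr2 differed from the rest in being highest in replicate 2 of each group.

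Markers of Schwann cells, satellite glia and fibroblasts differed with the replicate number. The median log2 difference of replicate 3 from replicate 1 was -1.15 for the 9 myelin genes, -1.60 for 5 Schwann lineage markers, -1.40 for 7 satellite glia markers and -1.55 for 7 fibroblast markers. It was 0.07 for 8 neuron markers, 0.14 for 5 endothelial markers, 0.05 for 7 macrophage markers and -0.01 for all tested genes. Between replicate numbers 5 of 5 Schwann lineage, 5 of 7 satellite glia, 6 of 7 fibroblast, 2 of 8 neuron, 2 of 7 macrophage and 0 of 5 endothelial markers were called, beside 23.2% of all tested genes, and the neuron and macrophage counts are near that share. In bulk RNA, fewer Schwann cells and less myelin RNA in each Schwann cell cannot be told apart, and the part of the cell make-up in the spread of the 9 genes was not tested.

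The satellite glia markers, of cells that wrap neuron bodies in the ganglion, summed to 1389, 793 and 403 CPM in vehicle replicates 1, 2 and 3, and to 1243, 847 and 431 CPM after HC-HA/PTX3, with Apoe the most abundant. The fibroblast markers summed to 2142, 2156 and 896 CPM with vehicle and to 1154, 1385 and 303 CPM with HC-HA/PTX3, with Col3a1 the most abundant. Both lists were lowest in replicate 3 of each group, as the Schwann lineage list was. The fibroblast sum was also lower in the treated culture of each pair, and Col1a1, Col1a2 and Col3a1 made up most of it. Of 8 markers of oligodendrocytes, the myelin cells of the central nervous system, Mog and Olig2 had at most 1 count in any culture, Opalin, Ermn, Hapln2 and Klk6 were also too low to be tested, and Mobp had 2 to 14 counts. Myrf, a transcription factor and the most abundant of them, had 107 to 462 counts. The list summed to 7.24, 6.82 and 8.54 CPM in vehicle replicates 1, 2 and 3, and to 4.12, 3.35 and 3.76 CPM after HC-HA/PTX3.

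**Figure D3:**
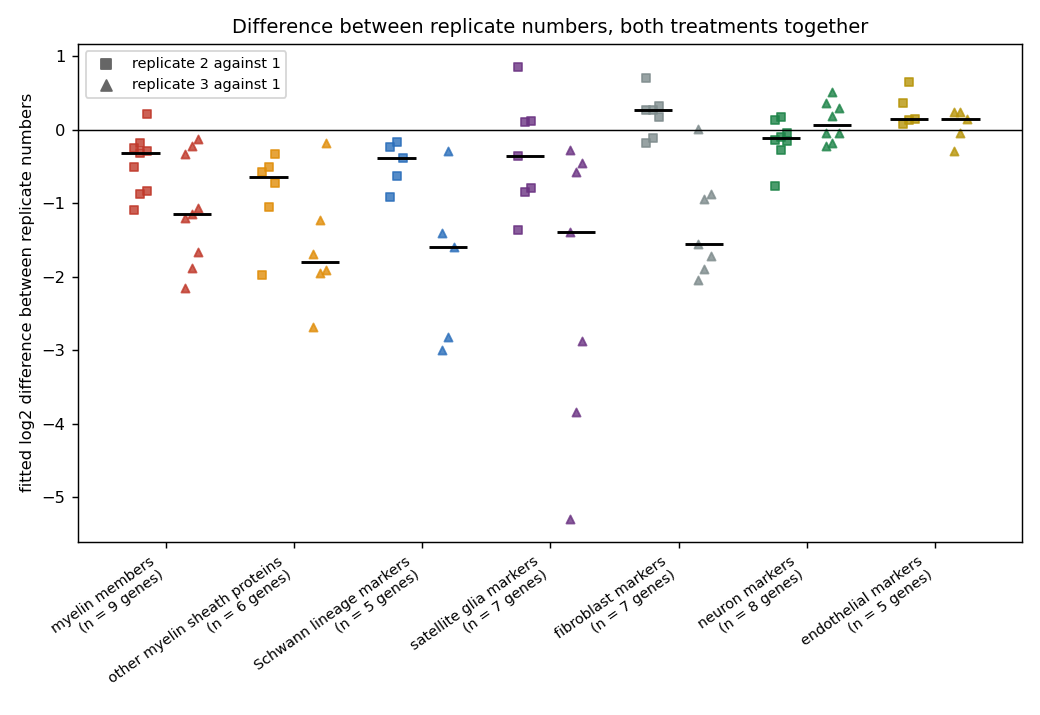
Fitted log2 difference of replicate 2 (squares) and replicate 3 (triangles) from replicate 1, over both treatments, for the genes of 7 lists. Each symbol is a gene and black bars are list medians. The triangles of the myelin, Schwann lineage, satellite glia and fibroblast lists lie mostly below 0, with medians from -1.15 to -1.60, and those of neuron and endothelial markers lie around 0.

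Set against Sox10, the lineage factor that Schwann cells and satellite glia keep when myelin genes are low, 6 of the 9 genes varied less between replicates of each group and 3 varied more. This ratio was chosen after the values were seen, and it leaves differences between genes within a culture as they were. Sox10 was itself lowest in replicate 3 of each group, so the count largely follows from the patterns already given and is not a test. Mbp was at 0.656, 0.449 and 0.363 of the Sox10 level in vehicle replicates 1, 2 and 3, and at 0.604, 0.330 and 0.385 after HC-HA/PTX3. Egr2 was at 0.278, 0.334 and 0.341 of Sox10 with vehicle and at 0.221, 0.314 and 0.253 with HC-HA/PTX3. The highest vehicle replicate of Mbp was 4.38 times the lowest in CPM and 1.81 times in this ratio, and for Egr2 the same folds were 2.07 and 1.23. Replicate 1 was the highest for Mbp in both groups, while Egr2 had its lowest ratio in replicate 1. Pmp22 was at 2.03, 1.92 and 3.91 times Sox10 with vehicle and at 1.93, 1.74 and 5.21 times with HC-HA/PTX3, highest in replicate 3, where Sox10 itself was low. Pmp22, Ncmap and Drp2 were the genes that varied more.

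The genes outside the list whose pattern over the 6 cultures lay nearest to the median pattern of the 9 were Asrgl1, Emp1, Ppp1r9a, Zeb2 and Celsr2, among 13569 tested genes whose log2 CPM averaged 1 or more. The root mean square difference in centred log2 CPM was 0.039 for Asrgl1 and 0.071 for Celsr2. Of the 9 genes themselves, Cnp at 0.106 and Mag at 0.153 were nearest to their median pattern, and Ncmap at 0.495 and Drp2 at 0.509 were farthest. Emp1 belongs to the same protein family as Pmp22, and Zeb2 is a transcription factor that Schwann cells need for myelination.

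Promoter sequence was searched in every member with a RefSeq entry. It is shown for the genes called between replicate numbers that have a single window, Prx, Mal and Cnp, and for Pmp22 as a gene not called, while Egr2 has 5 windows and is not shown. RefSeq windows of 300 bases, mostly before a start site and running a short way past it (build GRCm38.p6), were matched for 7 of the 9 genes, 17 windows in all, since several genes have more than one start and some of these windows overlap. Mbp and Drp2 had no entry. The windows below are Prx (chr7:27499074-27499373, plus strand), Mal (chr2:127656646-127656945, minus strand), Cnp (chr11:100574689-100574988, plus strand) and the first of 4 windows of Pmp22 (chr11:63128732-63129031, plus strand), each 5′ to 3′, with capitals for GTGGGNG, a short form of the motif bound by Egr proteins, and ACAAAG, a Sox-type motif, on either strand.
Prx: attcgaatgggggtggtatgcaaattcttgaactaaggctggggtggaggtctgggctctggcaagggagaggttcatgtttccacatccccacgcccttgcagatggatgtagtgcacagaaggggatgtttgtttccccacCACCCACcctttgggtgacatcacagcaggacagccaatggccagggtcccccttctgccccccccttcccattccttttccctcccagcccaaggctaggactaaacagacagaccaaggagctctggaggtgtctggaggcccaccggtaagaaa
Mal: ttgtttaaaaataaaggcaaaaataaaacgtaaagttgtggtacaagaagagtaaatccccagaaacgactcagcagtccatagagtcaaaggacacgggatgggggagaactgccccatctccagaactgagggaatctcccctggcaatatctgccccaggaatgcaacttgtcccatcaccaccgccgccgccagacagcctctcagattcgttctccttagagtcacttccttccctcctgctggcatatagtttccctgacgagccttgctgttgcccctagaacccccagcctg
Cnp: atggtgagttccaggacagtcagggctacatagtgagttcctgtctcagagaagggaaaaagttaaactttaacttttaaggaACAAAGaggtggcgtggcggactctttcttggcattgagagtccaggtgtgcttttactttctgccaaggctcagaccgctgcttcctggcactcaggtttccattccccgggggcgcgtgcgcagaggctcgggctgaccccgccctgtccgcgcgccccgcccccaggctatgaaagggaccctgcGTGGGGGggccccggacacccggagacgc
Pmp22: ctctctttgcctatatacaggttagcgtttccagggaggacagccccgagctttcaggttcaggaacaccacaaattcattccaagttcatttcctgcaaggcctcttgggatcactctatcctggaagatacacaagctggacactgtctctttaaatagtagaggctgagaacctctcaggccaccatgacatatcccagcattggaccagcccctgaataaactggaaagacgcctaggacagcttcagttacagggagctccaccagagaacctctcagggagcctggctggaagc

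In all, 7 motifs were searched on both strands, and the 2 in capitals were picked for display after the matches of all 7 had been seen. GTGGGNG was in 7 of the 17 windows, from 5 of the 7 genes (Prx, Mag, Egr2, Ncmap and Cnp), and in 31.6% of all 32851 windows. ACAAAG was in 3 of the 17 windows, from Mag and Cnp, and in 18.7% of all windows. The longer GNGTGGGNG, which contains GTGGGNG, was in 3 windows (Prx, Egr2 and Cnp) and 14.3% of all. AACAAAG, which contains ACAAAG, was in 1 window (Cnp) and 5.85% of all. The remaining 3 motifs were in 0 of the 17 windows, namely the full Egr motif GCGTGGGCG (0.612% of all windows), GCGGGGGCG (2.91%) and the TATA motif TATAAA (13.6%). None of the 7 was in the windows of Mal or Pmp22. A match is a string of letters and not a measured binding site, and whether matches go with the differences between replicate numbers was not tested.

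Some other genes of the sheath were called after HC-HA/PTX3, and whether they differed from the 9 was not tested. Of 6 other sheath proteins, 2 were lower and 0 higher, beside 5.38% lower and 3.32% higher of all tested genes, with a list median of -0.12. Pmp2, a fatty acid binding protein of compact myelin, was at 12.5, 3.12 and 3.79 CPM in vehicle replicates 1, 2 and 3 and at 5.58, 1.48 and 1.12 CPM after HC-HA/PTX3. Its log2 fold change was -1.31 (SE 0.17, adjusted p = 0.00117, edgeR), with vehicle replicate 1 far above the rest and the groups overlapping. Cldn19, a tight junction protein, fell by 0.67 (SE 0.19, adjusted p = 0.0341, edgeR), a call lost with any pair left out and with DESeq2. Tspan2, the most abundant of the list, was at -0.08 (SE 0.07). Gjb1, the gap junction protein connexin of non-compact myelin, named here after its value was seen, was higher in all 3 pairs at 0.41 (SE 0.10, adjusted p = 0.0178, edgeR) and under the fold threshold.

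In the lists around the sheath proteins, single calls are near the background of 8.70% of all tested genes and are given as values of the genes named. Of 6 enzymes of myelin glycolipids and fatty acids 1 was lower, Gal3st1, which makes sulfatide, at -0.57 (list median -0.18, with Scd2 the most abundant at 0.01). Of 7 genes of inherited demyelinating neuropathy 0 were called (median -0.09, Sbf2 the most abundant at -0.13). An unadjusted p-value under 0.05 was reached by 2 of these 7, against 33.2% of all tested genes (edgeR). Of 11 promyelin transcription factors 1 was lower, Pou3f2, at -0.63 (median -0.21, Zeb2 the most abundant at -0.21). By the adjusted p-value alone, which 19.2% of all tested genes passed, 4 of these factors were lower and 1 was higher. The higher one was Pou3f1 at 0.44 (adjusted p = 0.0489, edgeR), named here after its value was seen. Of 8 negative regulators of myelination 1 was lower, Egr1, an immediate early gene related to Egr2, at -0.52 (median -0.29, Jun the most abundant at 0.08). By the adjusted p-value alone 4 of these 8 were lower and 0 higher, against the same 19.2% of all tested genes.

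Of 9 genes of immature and repair Schwann cells 8 were tested and 1 was lower, Gfap, at -0.72 (median -0.06, Ngfr the most abundant at 0.01). Of 8 genes of axon to Schwann cell signalling 0 were called (median -0.02, Adam22 the most abundant at 0.03). An unadjusted p-value under 0.05 was reached by 3 of these 8, against 33.2% of all tested genes (edgeR). Of 7 genes of the dystroglycan complex, to which Drp2 binds, 1 was lower, the laminin chain Lama2, at -0.70 (median -0.24, Utrn the most abundant at -0.12). By the adjusted p-value alone 3 of these 7 were lower and 0 higher, against 19.2% of all tested genes. On that measure the enzyme, neuropathy and axon signalling lists had 1 gene lower each, the immature and repair list had 2, and 0 were higher. None of these lists had a gene called higher, where 3.32% of all tested genes were, and single calls in lists of this size are again near the background of 8.70%. Without replicate 1, Gal3st1, Pou3f2, Egr1 and Gfap were no longer called, and without replicate 3, Egr1 and Lama2 were no longer called. Without replicate 2, Gal3st1 and Gfap were no longer called. Egr1 was also not called with upper-quartile scaling or ComBat-seq then limma, and no gene of any list was called without the block.

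Among the marker lists, 0 of 5 Schwann lineage markers were called for treatment (median -0.07, 1 with an unadjusted p-value under 0.05 in edgeR), whereas 5 of 5 were called for the replicate number. The same count was 0 of 7 for satellite glia (median -0.15, 5 with an unadjusted p-value under 0.05), 0 of 8 for neurons (median 0.09, 5) and 0 of 5 for endothelium (median -0.08, 0), all from edgeR, beside 33.2% of all tested genes with an unadjusted p-value under 0.05. Satellite glia and neuron markers went both ways. By the adjusted p-value alone, which 19.2% of all tested genes passed, Fabp7 at -0.40 and Kcnj10 at -0.34 were lower and Glul at 0.28 and Ednrb at 0.34 higher among satellite glia markers, and Elavl4 at -0.28 was lower and Uchl1 at 0.32 higher among neuron markers, all under the fold threshold and named after their values were seen. Fibroblast markers had 4 of 7 called lower, Col1a1 at -1.62, Col1a2 at -1.11, Col3a1 at -0.96 and Fbln1 at -0.87 (median -0.87), Fbln1 losing its call without replicate 1 or 2. The rest of that list was not called, with Lum at -0.31, Pdgfra at -0.25 and Dcn at -0.09. Macrophage markers had 1 of 7 lower, C1qa at -0.74 (median -0.06, Lyz2 the most abundant), summing to 70.4, 91.6 and 78.6 CPM with vehicle and 67.0, 94.8 and 60.5 CPM with HC-HA/PTX3. C1qa lost its call without replicate 1 or 3 and with ComBat-seq then limma. Of 8 oligodendrocyte markers 2 were tested, Myrf was lower at -1.07, and Mobp was not called at -0.44 (SE 0.48). The part of the change in the called fibroblast markers in the within-pair values of the 9 myelin genes was not tested.

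**Figure D4:**
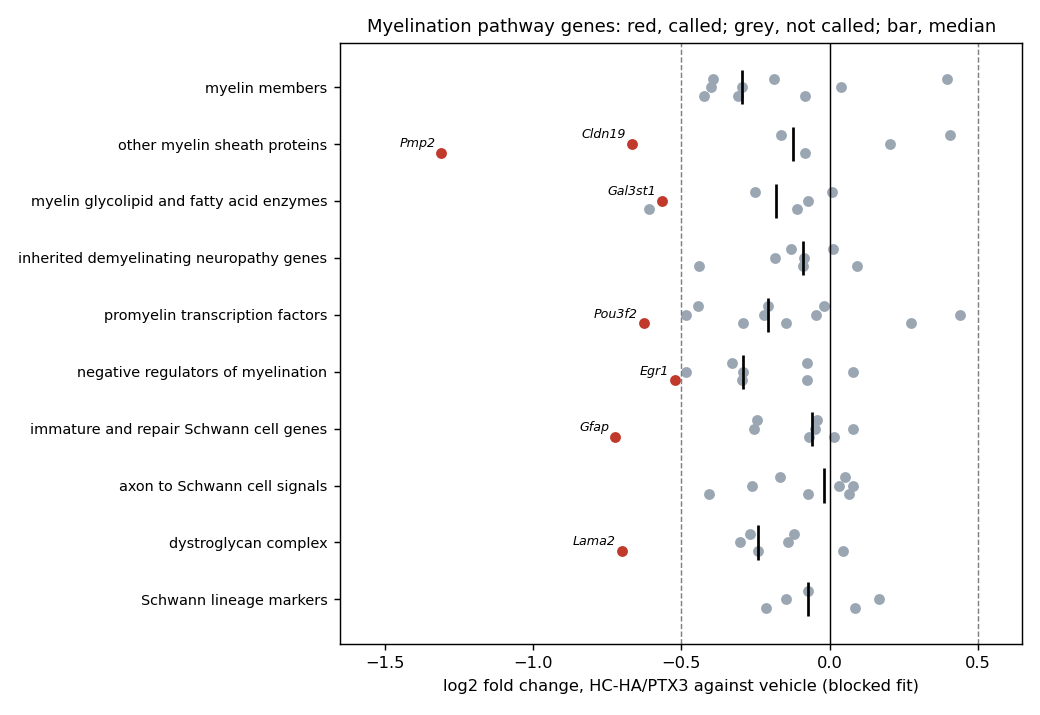
Fitted log2 fold change after HC-HA/PTX3 for the 9 myelin genes and 9 further lists of the myelination pathway. Red points passed both thresholds and are named, grey points did not, black bars are list medians and dashed lines mark ±0.5. The named genes all lie to the left of -0.5, and the myelin genes lie between the dashed lines with a median of -0.30.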

How the data were processed

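RNA of 6 cultures was analysed, 3 with vehicle and 3 with HC-HA/PTX3, grouped and numbered as in the sample labels. The authors deposited a raw count of reads for each gene of each culture, neither normalized nor pooled. Their methods name HISAT2, mm10 and featureCounts, while the headers of the tables name STAR, and the strand setting is not stated.

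Counts were analysed in R 4.3.3 with edgeR 4.0.16 (filterByExpr by treatment, TMM, glmQLFit and glmQLFTest on replicate number plus treatment, Benjamini-Hochberg adjustment over 18277 genes). A gene was called at an adjusted p below 0.05 with a log2 fold change beyond ±0.5, as in the methods. Each SE of a fitted change was derived from the test, as the absolute log2 fold change over the square root of its F statistic. The block follows the batch term of the methods, with the replicate number in its place because no batch is given per culture, and it was made the main fit knowing that the fit without it calls 0 genes. As a check of the pairing, each culture's deviation from its group mean was correlated with that of the cultures of the other group over the tested genes, giving 0.631, 0.536 and 0.774 for same-numbered cultures and -0.613 to 0.148 for the others. Among all 15 pairs of libraries none was a duplicate (chi-square per degree of freedom 17.9 to 129). The procedure was tested on simulated data.

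The members and gene lists were chosen with earlier results of these data known. Sox10 and Erbb3 are in more than one list. Some listed genes are not reported here and were left out of the list counts. Named genes are the 9 members, the called and the most abundant genes of each list, markers near 0, and the 5 genes nearest to the members' median pattern (log2 CPM, prior count 2). Also named are S100b, Gjb1, Pou3f1, the fibroblast markers not called, and the satellite glia and neuron markers that passed the adjusted p-value alone. Gene lengths and overlaps are from GENCODE M21 (mm10), where 116 of 116 listed symbols matched, and promoter windows from RefSeq. Alternatives were no block, DESeq2 1.42.0, limma-voom (limma 3.58.1), ComBat-seq (sva 3.50.0) then limma, upper-quartile scaling, raw library sizes, 2 other count filters, no fold threshold, and cultures or pairs left out. The floor for a gene with no read, 3 counts, was at most 0.0808 CPM and covers counting error only.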

Additional observations from a re-analysis of the deposited data

How the results depend on the processing

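Calls among the 9 myelin genes for treatment were 0 with DESeq2, limma-voom, ComBat-seq then limma, both other scalings, both other filters and no replicate block, 3 without a fold threshold, and 0 to 1 with replicates left out (1 without replicate 2, Egr2). The count with DESeq2 leaves out Mag, which had no adjusted p there. All genes called went from 1591 to 0 with no replicate block and to 3505 without a fold threshold, and ranged from 0 to 1571 with replicates left out, 878 without pair 1. The median log2 fold change of the 9 was -0.20 with no replicate block, -0.25 with limma-voom and -0.26 with upper-quartile scaling, and ranged from -0.51 to 0.16 with replicates left out. Both ends come from leaving out a single culture without the block, which unbalances the pairs. There the changes ranged from -0.95 to 0.28 for Mbp, -0.15 to 0.019 for Pmp22, -0.94 to 0.35 for Prx, -0.70 to 0.022 for Egr2, -0.86 to 0.16 for Mal, -0.45 to 0.088 for Cnp and -0.075 to 0.19 for Drp2. For Mag they ranged from -0.70 to -0.087, and for Ncmap from 0.24 to 0.58. With whole pairs left out in the blocked fit, the median ranged from -0.25 to -0.16. Without pair 1, Mal was at -0.19 and Mag at -0.25, without pair 2, Cnp was at -0.12 and Pmp22 at -0.04, and without pair 3, Egr2 was at -0.25, Prx at -0.15 and Ncmap at 0.25, while Mbp ranged from -0.36 to -0.23. Drp2 changed sign, to -0.02 without pair 3. By the adjusted p alone, a count added after the data were seen, 3 of the 9 passed (19.2% of all tested genes), 6 with ComBat-seq then limma (40.7%), 4 with all genes of at least 1 count (14.0%), 2 with upper-quartile scaling (18.2%), 0 with no replicate block (0%), and 0 to 2 with replicates left out (1 without pair 1, 8.20%, 1 without pair 2, 11.8%, and 2 without pair 3, 12.0%). Replicate number was tested with both other scalings, both other filters, limma-voom, no fold threshold and pairs left out. There 4 to 7 of the 9 were called, and from 1243 of 18329 to 6180 of 18277 tested genes. With pairs left out it was 4 to 5 of the 9, and from 1243 of 18329 to 3201 of 18510 tested genes. Mag had 11 to 37 reads a culture and Ncmap 54 to 72, the lowest of the 9, and their SEs were the largest.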
